A study of Mus musculus with 48 samples.

Results

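The comparison set high against low doses of the dioxin TCDD within each of 3 vehicle animals, so that the vehicle animal in each ratio cancels. It used 36 of the 48 arrays and 18 of the 24 animal pairs. The high arm was the 9 pairs at 3, 10 and 30 µg/kg and the low arm the 9 pairs at 0.01, 0.03 and 0.1 µg/kg, chosen by the labelled dose and not by any measured value. The 6 pairs at 0.3 and 1 µg/kg lie between the arms and enter only where they are named. The animals were female C57BL/6 mice, for which the labels give no engineered allele and no age. Treated mice received TCDD by gavage and vehicle mice sesame oil, every 4 days for 28 days, although a label also calls the gavage daily. RNA of the jejunal epithelium, the lining of the middle part of the small intestine, was compared on Agilent two-colour arrays, with 1 treated and 1 vehicle animal on each array and a second array with the dyes exchanged. Each treated animal was used in 1 pair, and each vehicle animal in 3 pairs of each arm.

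TCDD binds the aryl hydrocarbon receptor (AHR), a transcription factor that then moves to the nucleus, pairs with ARNT and binds DNA at a short core motif. Its best known target is Cyp1a1, a cytochrome P450 enzyme that oxidises aromatic compounds, and in the intestine the receptor also responds to compounds from food and microbes. The jejunal epithelium carries further enzymes that oxidise, conjugate and hydrolyse foreign compounds, and transporters that take up fat, sterols and retinoids.

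The values are log2 ratios of treated over vehicle RNA for 13225 genes. Ratios hold no absolute level, so the labelled tissue could not be checked against its markers, and fewer cells of a type and less RNA per cell cannot be told apart. Neither the base of the logarithm nor the sign is stated. They were taken as 2 and as treated over vehicle, a direction that is likely because Cyp1a1 lay above 0 in all 9 high pairs. The 36 arrays hold 28312 to 33126 values each. Across probes, both arrays of a dye swap had a correlation of -0.20 to 0.48 with each other, negative for 7 of 18 pairs, and a median of 0.34 once the mean profile of each dye orientation was subtracted. Genes of the exocrine pancreas stood apart in 4 pairs. The median log2 ratio of 14 measured genes, from a list of 20, was 3.07 and 1.00 in the pairs of vehicle animals 1 and 3 at 30 µg/kg, and 2.46 and 1.46 in those of vehicle animal 2 at 0.03 and 0.1 µg/kg. In the other pairs of both arms that median ran from -0.07 to 0.09. The summed log2 ratio of the 14 genes ran from -0.66 to 33.4 in the low arm and from -0.39 to 39.6 in the high arm, and none of them was called in the comparison.

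Between the arms, 52 genes were higher and 26 lower at the high doses, which is 0.393% and 0.197% of the genes tested. A gene is called here at an adjusted p under 0.05 in limma, Benjamini-Hochberg adjusted over all genes, and a difference is the mean log2 ratio of the high arm minus that of the low arm with its SE. The largest rises were in Pou3f1, Cyp1a1, Bco1 and Acta1, and the largest falls in Dnajb3 and in the detoxifying enzymes Gstm3, Cyp3a25 and Ces2g. Most changes were small: 67 of the 78 called genes changed by less than 1.5-fold, 8 rose and 3 fell by more, and the 7 genes that changed at least 2-fold all rose. All 9 high pairs lay above all 9 low pairs for 12 genes (0.0907% of those tested) and below them for 5 (0.0378%). Of these, 9 and 5 were called. All 78 had the same sign within each vehicle animal, as did 3708 of all genes (28.0%), and 1887 genes had an unadjusted p under 0.05.

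The counts rest on few animals. Leaving out vehicle animal 1, 2 or 3 gave 1, 171 or 0 called genes, and 35 of the 78 had an adjusted p above 0.04. Leaving out 1 dose gave 5 (0.01 µg/kg), 52 (0.03), 1 (0.1), 109 (3), 2 (10) and 2 (30) called genes, and leaving out the 4 pairs with pancreas signal gave 1, Cyp1a1. Without centring of the arrays 53 genes were higher and 14 lower.

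Each dye orientation alone gave the same sign for the leading genes. With the treated animal in Cy5 and in Cy3, the difference was 2.74 and 2.21 for Cyp1a1, 2.92 and 2.95 for Pou3f1, 1.83 and 1.84 for Acta1, and -0.76 and -0.80 for Gstm3. It stood further apart for Disp2 (0.59 and 1.00) and Edaradd (-0.44 and -0.03), and the complete probes differ between these fits.

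**Figure D1:**
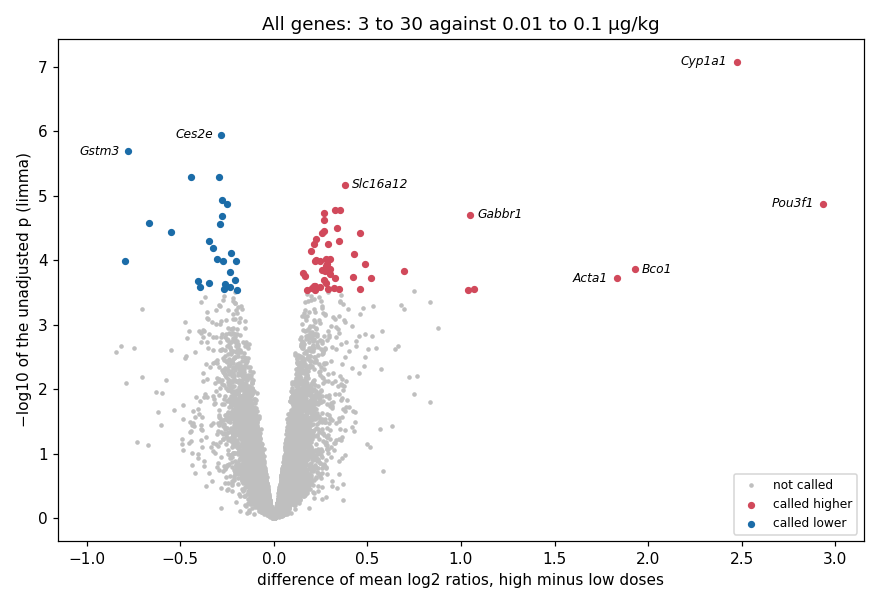
Difference between the arms (x axis, mean log2 ratio at 3 to 30 µg/kg minus that at 0.01 to 0.1 µg/kg) against −log10 of the unadjusted limma p (y axis) for 13225 genes. Each point is a gene, with the 52 called higher in red and the 26 called lower in blue. Pou3f1, Cyp1a1, Bco1 and Acta1 lie far to the right, and no fall is as large as any of these rises.

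Among the targets of AHR, Cyp1a1 had the smallest p of all genes. Its log2 ratio ran from -1.04 over a median of 0.25 to 1.43 in the low arm and from 0.97 over 2.67 to 3.34 in the high arm. Only the pair of vehicle animal 1 at 3 µg/kg lay within the range of the low arm. The difference was 2.47 ± 0.28 (SE, 9 pairs against 9; limma adjusted p 0.00111), a 5.55-fold change. It was 2.22, 2.39 and 2.81 within vehicle animals 1, 2 and 3. An exact permutation of the arms within each vehicle animal (8000 arrangements, two-sided) gave p = 0.00025, the smallest it can give. The permutation was run for Cyp1a1, Pou3f1 and Acta1 alone and is not adjusted over genes. The mean log2 ratio was 2.04 ± 0.92 (SD, n = 3) at 3 µg/kg, 2.65 ± 0.69 at 10 and 3.08 ± 0.36 at 30. In the low arm Cyp1a1 varied more between pairs (SD 0.83) than Pou3f1 did (SD 0.23). Without vehicle animal 3 the adjusted p of Cyp1a1 was 0.0630.

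Cyp1a1 was the only called gene of 7 measured in a list of 13 AHR targets. Of the other measured members, Tiparp, an ADP-ribosyltransferase that represses AHR, was at 0.72 ± 0.23 (adjusted p 0.167), and Cyp2s1, a further P450, at 0.33 ± 0.08 (adjusted p 0.0775). Both differed between the doses of the high arm, where 30 exceeded 3 µg/kg by 1.51 ± 0.19 for Tiparp (limma adjusted p 0.000287) and by 0.47 ± 0.10 for Cyp2s1 (adjusted p 0.0289). The quinone reductase Nqo1 was at 0.03 ± 0.10, the glutathione transferases Gsta1 and Gsta2 at 0.02 ± 0.06 and 0.06 ± 0.06, and Nfe2l2, which encodes the antioxidant regulator NRF2, at -0.04 ± 0.07, none of them called. Ahr itself, one of 5 measured genes of the receptor and its partners, was at 0.40 ± 0.12 (adjusted p 0.109). Its log2 ratios ran from -0.11 to 0.38 in the low arm and from 0.06 to 1.15 in the high arm, and 30 exceeded 3 µg/kg by 0.70 ± 0.11 (adjusted p 0.0048). Its partner Arnt was at 0.03 ± 0.04.

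Further targets had values in only some of the pairs and were fitted with all incomplete probes, in a run of 15135 genes. There Ahrr, the AHR repressor, was at 1.54 ± 0.46 (8 pairs of each arm; adjusted p 0.162). Cyp1b1 was at 0.45 ± 0.13 (9 high and 6 low pairs; adjusted p 0.161) and Cyp1a2 at 0.68 ± 0.35 (9 high and 7 low pairs; adjusted p 0.436). None of these P450 and repressor genes was called. The SD between high pairs was 1.36 for Ahrr, 0.95 for Cyp1a2 and 0.29 for Cyp1b1, against 0.36, 0.16 and 0.25 between low pairs. The fit of the arms has no term for dose, so spread between the high doses counts as error. A missing call therefore does not show that a gene stayed unchanged.

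The largest rise was in Pou3f1, a POU-domain transcription factor known from Schwann cells and skin. Its log2 ratio ran from -0.43 over a median of -0.05 to 0.28 in the low arm and from 0.35 over 3.02 to 4.48 in the high arm. Every high pair lay above every low pair. In vehicle animals 1, 2 and 3 the ratios were 4.48, 4.39 and 4.41 at 30 µg/kg. The ratios were 3.02, 2.96 and 3.62 for 10 µg/kg, while 3 µg/kg gave 0.35, 1.58 and 1.01. The pairs at each dose thus lay above those at the dose below, and the pairs at 0.3 and 1 µg/kg stayed between -0.08 and 0.32. The difference between the arms was 2.94 ± 0.49 (limma adjusted p 0.0193), or 7.65-fold, with an unadjusted exact permutation p of 0.00025, the smallest possible. This permutation p is not adjusted for the choice of the gene, which was made with earlier results of these data known. The large SE goes with the spread between the 3 doses of the high arm (SD 1.55), and the adjusted p rose to 0.144 without vehicle animal 1 and 0.122 without vehicle animal 3. Of the 8 POU-domain genes listed, all measured, Pou3f1 alone was called. The others ran from -0.45 for Pou5f1 to 0.23 for Pou4f1.

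Acta1, the alpha-actin of skeletal muscle, rose by 1.83 ± 0.39 (adjusted p 0.0454, with an unadjusted exact permutation p of 0.0005). Its log2 ratio ran from -0.43 over a median of 0.13 to 1.08 in the low arm and from 0.19 over 1.81 to 3.71 in the high arm. All 3 pairs at 10 µg/kg (1.81, 2.32 and 1.44) lay above the low arm, as did the 3 pairs at 30 µg/kg (3.21, 3.20 and 3.71), while those at 3 µg/kg (0.19, 0.95 and 0.91) lay within it. The adjusted p of Acta1 was 0.335, 0.0680 and 0.172 without vehicle animals 1, 2 and 3. The other 13 measured genes of a list of 19 for skeletal-type muscle were not called, from -0.05 for the myosin Myh1 to 0.35 for the enolase Eno3. Apobec2, a further listed muscle gene with a value in 9 high and 8 low pairs, stood at 1.10 ± 0.50 in the fit with incomplete probes (adjusted p 0.360). The summed log2 ratio of the 14 measured muscle genes ran from -0.68 to 1.27 in the low arm and from 0.89 to 5.55 in the high arm. Without Acta1 the sum ran from -0.68 to 1.29 and from -0.022 to 2.35, so that the arms overlapped, as did the list medians (-0.06 to 0.12 and 0.0045 to 0.15). No smooth muscle gene of 10 measured was called, and the actin-binding Tagln was at 0.24 ± 0.06 (adjusted p 0.0564). The part of muscle tissue in the rise of Acta1 was not tested.

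A further group was near 0 through 3 µg/kg in most pairs and high at 10 and 30 µg/kg. Disp2, of the Dispatched family that releases Hedgehog proteins, ran from -0.20 to 0.12 in the low arm and stood at 0.10, 0.27 and 0.09 at 3 µg/kg, 1.08, 1.10 and 1.54 at 10, and 2.02, 1.27 and 1.83 at 30. Its difference between the arms was 1.04 ± 0.23 (adjusted p 0.0498), read by 1 complete probe. With the treated animal in Cy5 and in Cy3 it was 0.59 and 1.00, in fits whose complete probes differ. Wdr11, a WD-repeat protein of vesicle traffic, ran from -0.32 to 0.20 in the low arm and reached 1.48, 2.02 and 1.81 at 30 µg/kg, with a difference of 1.07 ± 0.24 (adjusted p 0.0498). For both genes the high arm at 10 and 30 µg/kg was clear of the low arm, whereas the pairs at 3 µg/kg overlapped it. Amelx, the enamel protein amelogenin, followed the same course at a smaller size (0.46 ± 0.10, adjusted p 0.0498), with 0.80, 0.77 and 0.64 at 30 µg/kg.

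Gabbr1, a subunit of the metabotropic GABA receptor, rose by 1.05 ± 0.18 as a mean of 3 probes (adjusted p 0.0193). Only 1 of the probes moved: it differed by 3.16 ± 0.53 (adjusted p 0.0176), the others by 0.11 ± 0.11 and -0.11 ± 0.05. Wfikkn2, a secreted protease inhibitor-like protein that binds myostatin, was likewise carried by 1 probe (2.07 ± 0.40, adjusted p 0.0355) while the others stood at -0.03 ± 0.08 and 0.04 ± 0.05. Its mean over probes was 0.69 ± 0.14 (adjusted p 0.0404), and -0.028 if the weakest probe was taken. What sets these single probes apart was not tested. Ahsg, the plasma protein fetuin-A made mainly in liver, rose by 0.52 ± 0.11 (adjusted p 0.0454), with 0.04, 0.20 and 0.11 at 3 µg/kg, 0.24, 0.77 and 0.78 at 10, and 0.79, 0.71 and 0.72 at 30. It alone was called among 6 measured genes of a list of 12 liver plasma proteins. The inhibitor chain Itih1 came next at 0.18 ± 0.04 (adjusted p 0.0545).

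Bco1, which cleaves beta-carotene to retinal, rose by 1.93 ± 0.40 (adjusted p 0.0403). Its log2 ratio ran from -1.27 over a median of -0.09 to 1.67 in the low arm and from 0.32 over 1.19 to 3.83 in the high arm. In vehicle animals 1, 2 and 3 it was 3.83, 1.15 and 2.14 at 30 µg/kg, and 3.56, 0.91 and 2.73 for 10 µg/kg. The arms overlapped, and the difference was 1.09 in vehicle animal 2 against 1.90 and 2.79 in vehicle animals 1 and 3. Of 20 measured genes of retinoid metabolism in a list of 29, Bco1 was the only one called, and 12 lay below 0. Across all genes 49.4% lay above 0. Rdh10, which oxidises retinol, was at 0.36 ± 0.08 (adjusted p 0.0556), and Adh4, an alcohol dehydrogenase that acts on retinol, at -0.75 ± 0.21 (adjusted p 0.106).

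**Figure D2:**
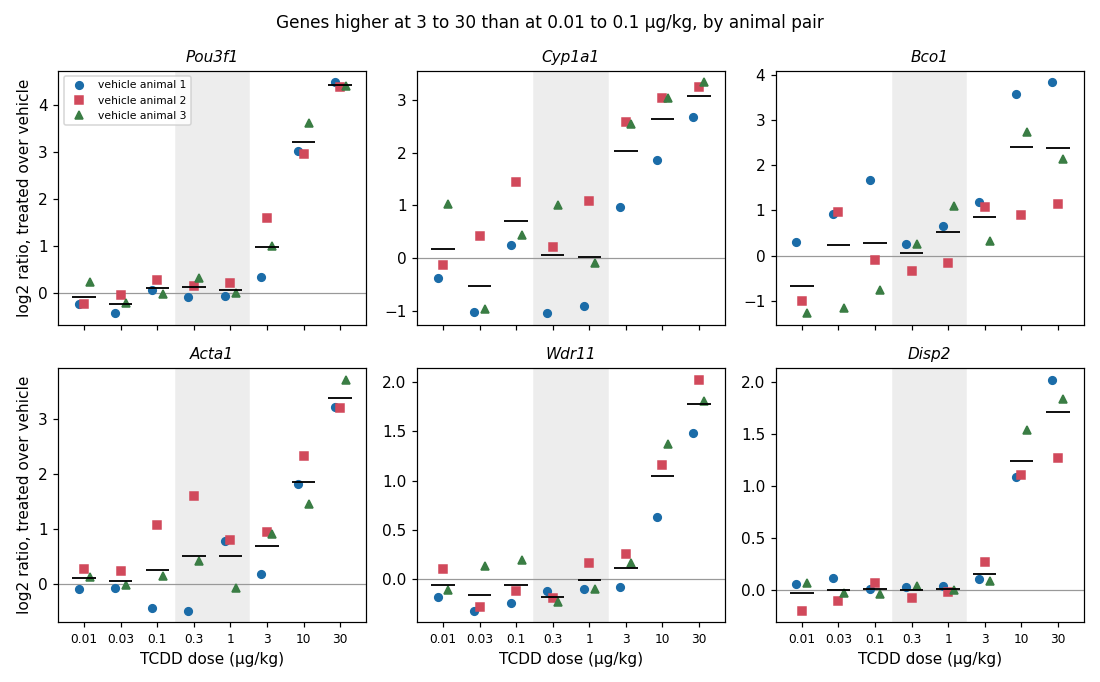
Log2 ratio of treated over vehicle (y axis) by TCDD dose in µg/kg (x axis, categories) for 6 of the genes that rose most. Each point is an animal pair, coloured by vehicle animal, black bars are means of 3 pairs, and grey marks the doses between the arms. Pou3f1 climbs from 0.98 to 4.43 between 3 and 30 µg/kg, whereas Cyp1a1 is already at 2.04 at 3 µg/kg.

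The other large rises were smaller than 1.5-fold. Rmrp, the RNA of the RNase MRP complex, rose by 0.46 ± 0.08 (adjusted p 0.0227), and Cnot3, a subunit of the CCR4-NOT deadenylase, by 0.36 ± 0.06 (adjusted p 0.0193). For both, every high pair lay above every low pair. Ctu1, which thiolates transfer RNA, rose by 0.43 ± 0.08 (adjusted p 0.0340), Slc16a12, of the monocarboxylate transporter family, by 0.38 ± 0.06 (adjusted p 0.0149) and the coiled-coil gene ccdc198 by 0.49 ± 0.10 (adjusted p 0.0358). At 3 µg/kg the mean of all 52 called rises, these included, was above the mean of the low arm, which the choice of a high arm that holds 3 µg/kg favours. Across all 52 called rises the median difference was 0.29, and the median excess over the mean of the low arm was 0.24 at 3, 0.31 at 10 and 0.31 at 30 µg/kg. The mean was ordered from 3 over 10 to 30 µg/kg in 21 of the 52.

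The upstream sequence of some of the leading genes is shown because AHR is known to bind the core motif GCGTG. Pou3f1, the largest rise, had no promoter entry and could not be examined. Sequences are the 250 bases before the start site of each gene in RefSeq (GRCm38.p6), 5′ to 3′ on the strand of the gene, with the motif on either strand (GCGTG or CACGC) in capitals. They lie at chr9:57697363-57697612 on the plus strand for Cyp1a1, chr8:123894776-123895025 on the minus strand for Acta1, chr8:117095615-117095864 on the plus strand for Bco1, chr17:37045716-37045965 on the plus strand for Gabbr1, chr16:22891765-22892014 on the plus strand for Ahsg and chr3:107969175-107969424 on the minus strand for Gstm3, the called enzyme with the largest fall.
Cyp1a1: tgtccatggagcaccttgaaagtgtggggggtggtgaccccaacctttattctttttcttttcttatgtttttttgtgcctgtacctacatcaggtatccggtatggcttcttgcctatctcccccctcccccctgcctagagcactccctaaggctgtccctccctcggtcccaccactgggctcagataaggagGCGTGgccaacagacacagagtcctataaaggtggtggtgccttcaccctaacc
Acta1: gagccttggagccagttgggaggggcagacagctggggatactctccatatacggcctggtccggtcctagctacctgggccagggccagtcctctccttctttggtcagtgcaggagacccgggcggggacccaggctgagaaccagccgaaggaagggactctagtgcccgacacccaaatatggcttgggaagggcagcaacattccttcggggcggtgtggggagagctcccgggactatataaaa
Bco1: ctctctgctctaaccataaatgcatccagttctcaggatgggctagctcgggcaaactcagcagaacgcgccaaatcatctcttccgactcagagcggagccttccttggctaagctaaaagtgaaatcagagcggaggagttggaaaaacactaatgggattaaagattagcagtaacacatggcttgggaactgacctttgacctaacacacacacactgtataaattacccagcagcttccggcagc
Gabbr1: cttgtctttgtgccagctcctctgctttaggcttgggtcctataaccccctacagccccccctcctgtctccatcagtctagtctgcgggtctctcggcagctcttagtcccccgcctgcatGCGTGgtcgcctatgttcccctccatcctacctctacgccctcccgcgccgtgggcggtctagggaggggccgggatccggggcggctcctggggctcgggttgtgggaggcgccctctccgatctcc
Ahsg: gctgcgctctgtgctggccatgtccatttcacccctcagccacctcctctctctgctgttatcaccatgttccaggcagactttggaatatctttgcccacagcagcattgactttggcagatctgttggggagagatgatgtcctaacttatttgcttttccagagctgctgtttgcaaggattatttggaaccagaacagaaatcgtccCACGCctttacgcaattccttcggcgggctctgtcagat
Gstm3: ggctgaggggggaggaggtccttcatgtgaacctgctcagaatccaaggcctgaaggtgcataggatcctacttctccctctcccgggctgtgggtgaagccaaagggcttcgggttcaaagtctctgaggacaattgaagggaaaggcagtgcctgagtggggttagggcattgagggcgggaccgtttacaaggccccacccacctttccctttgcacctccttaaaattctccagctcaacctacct
The motif occurs once each upstream of Cyp1a1 (first base at -54 from the start site), Gabbr1 (-128) and Ahsg (-39), and these letters are not in the windows of Acta1, Bco1 and Gstm3. Among called rises not shown, Wdr11, Wfikkn2, ccdc198, Amelx, Ctu1, Slc16a12, Cnot3, Olfr419 and Olfr124 lack the motif too. The rises shown thus hold it more often than the named rises with a promoter entry. Among called falls not shown, Mtfp1, Edaradd, Hsdl2 and Snapc1 hold the motif, as does 1 window of Abcg8. Dnajb3, Cyp3a25, Ces2g, Rnf130, Hs3st1, Ugt1a1, Cyp2c40 and Ces2e lack it. The motif is common: 28.1% of 32817 promoters in RefSeq hold it in this window. By gene, it was found for 43.7% of 10684 tested genes with a promoter entry, for 34.8% of 46 called higher and for 58.3% of 24 called lower. A match is a description of the letters, not of binding.

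Several of the called falls were enzymes that modify foreign compounds. Gstm3, a mu-class glutathione transferase, fell from log2 ratios of -0.11 over a median of 0.10 to 0.50 in the low arm to -1.21 over -0.54 to 0.16 in the high arm. Only the pair of vehicle animal 2 at 30 µg/kg (0.16) lay within the low arm's range. The difference was -0.78 ± 0.11 (adjusted p 0.00906), and -0.85, -0.47 and -1.02 within vehicle animals 1, 2 and 3. The mean was -0.50 ± 0.05 (SD, n = 3) at 3 µg/kg, -0.67 ± 0.24 at 10 and -0.64 ± 0.72 at 30, against 0.18 ± 0.22 (SD, n = 9) in the low arm. Calling on an arm that holds 3 µg/kg favours a mean below the low arm at that dose. With 3 µg/kg alone as the high arm, 0 genes were called. Cyp3a25, a P450 of the drug-oxidising CYP3A subfamily, fell by 0.67 ± 0.12 (adjusted p 0.0211). Its 2 probes gave -0.64 ± 0.13 and -0.69 ± 0.11. The log2 ratios of Cyp3a25 ran from -0.37 to 0.67 in the low arm and from -0.94 to -0.11 in the high arm, overlapping through the pair of vehicle animal 2 at 0.1 µg/kg. Cyp2c40, of the CYP2C subfamily, fell by 0.32 ± 0.06 (adjusted p 0.0307). For Cyp2c40 the probes gave -0.22 ± 0.06 (adjusted p 0.126) and -0.42 ± 0.08 (adjusted p 0.033), so only the second was called alone.

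Both carboxylesterases Ces2g and Ces2e, which hydrolyse ester drugs and lipids, fell. Ces2g differed by -0.55 ± 0.10 (adjusted p 0.0227), with means of -0.34, -0.39 and -0.73 at 3, 10 and 30 µg/kg and arms that overlapped. Ces2e had the second smallest p of all genes although its difference was only -0.28 ± 0.04 (adjusted p 0.00755). The differences of Ces2e in vehicle animals 1, 2 and 3 were -0.28, -0.30 and -0.27, while its arms overlapped (-0.11 to 0.31 against -0.44 to 0.02). In RefSeq the genes lie near each other on chromosome 8, with 1 coding gene between them. Ugt1a1, which conjugates bilirubin with glucuronic acid, fell by 0.35 ± 0.07 (adjusted p 0.0269), from ratios of 0.00 to 0.36 in the low arm to -0.51 to 0.08 in the high arm. Dnajb3, a J-domain chaperone, fell by 0.79 ± 0.16 (adjusted p 0.0346) and is the neighbour of Ugt1a1 on chromosome 1. Dnajb3 lies within the span of 8 other Ugt1a genes, and whether its probe also reads their transcripts was not tested.

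**Figure D3:**
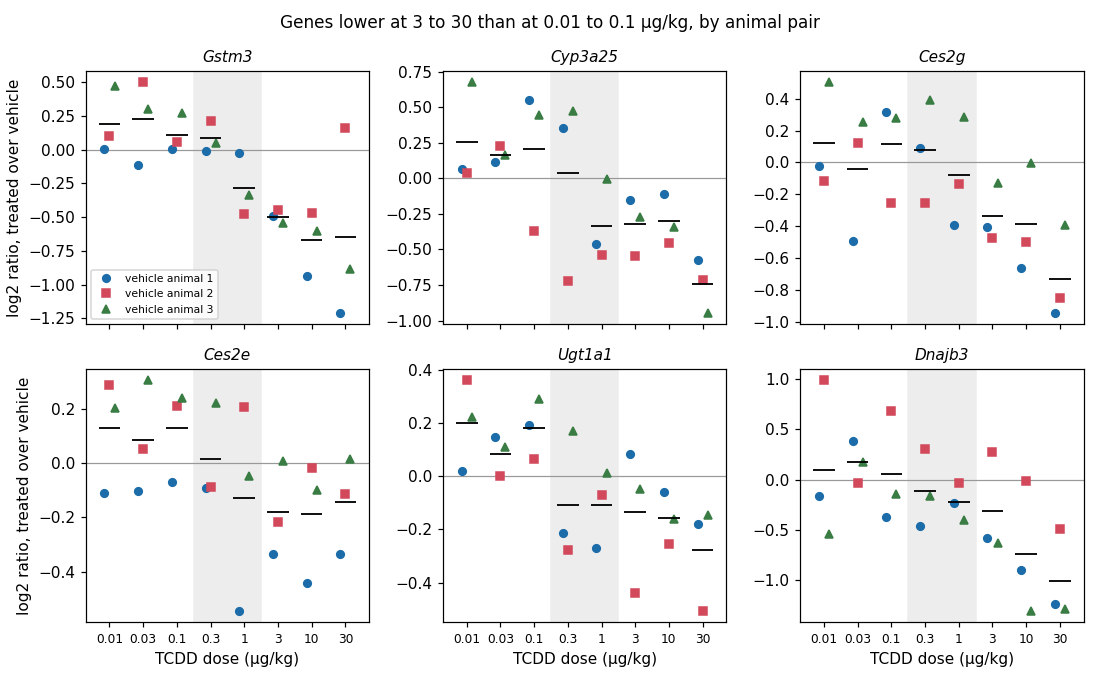
Log2 ratio of treated over vehicle (y axis) by TCDD dose in µg/kg (x axis, categories) for 5 detoxifying enzymes and Dnajb3, drawn as in the plot of rises. Means in the high arm lie below 0 for all 6 genes, and the pairs overlap the low arm in each of them. The fall of Gstm3 is at -0.50 at 3 µg/kg, while Ces2g goes on to -0.73 at 30 µg/kg.

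Read over whole lists, 11 of 14 measured P450 genes, from a list of 19 outside the Cyp1 family that lacks Cyp2c40, lay below 0. Their median was -0.19, while the median of all genes was 0.00 and 49.4% of all genes lay above 0. Of the 14 only Cyp3a25 was called, and 9 had an unadjusted p under 0.05, as did 14.3% of all genes. The median of the list in single pairs ran from -0.08 to 0.68 in the low arm and from -0.38 to 0.12 in the high arm, so the arms overlapped. The pair of vehicle animal 3 at 0.01 µg/kg stood apart at 0.68 with the next at 0.27, and it was also the highest pair for the lists of conjugation (0.32) and of glutathione genes (0.29). The furthest members not called were Cyp2c55 at -0.79 ± 0.26 (adjusted p 0.180) and, on the other side, Cyp2j6 at 0.44 ± 0.12 (adjusted p 0.104). Of 13 measured genes of conjugation and ester hydrolysis in a list of 18 that lacks Ces2g, 9 lay below 0, Ugt1a1 and Ces2e were called, and the median was -0.10. The largest difference there, Ugt2b5 at -0.84 ± 0.24, had an adjusted p of 0.110. Of 32 measured glutathione and NRF2 genes in a list of 36, 24 lay below 0 with a median of -0.08, and Gstm3 alone was called. Gstm1 and Gsta3 stood at -0.82 ± 0.23 and -0.70 ± 0.23 with adjusted p of 0.104 and 0.166.

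Among the listed lipid genes the only call was Abcg8. This transporter, which with Abcg5 pumps sterols back into the gut lumen, fell by 0.26 ± 0.06 (adjusted p 0.0498), and its partner Abcg5 was at -0.23 ± 0.08 (adjusted p 0.217). The 2 probes of Abcg8 gave -0.13 ± 0.04 (adjusted p 0.208) and -0.40 ± 0.09 (adjusted p 0.0529), neither called alone, and the call held in 5 of 29 other settings. Abcg8 was the only called gene of 9 measured for sterol transport, of which 7 lay below 0 with a median of -0.22. Across all genes 49.4% lay above 0. None was called of 16 genes of fat absorption, 24 of fatty acid oxidation, 14 of fatty acid synthesis, 18 of cholesterol synthesis and 9 of bile acid handling. The nearest to a call were the isomerase Eci1 of fatty acid oxidation at -0.21 ± 0.05 (adjusted p 0.0616) and malic enzyme Me1, which supplies NADPH, at -0.70 ± 0.17 (adjusted p 0.0657). Cd36, a fatty acid receptor, was at 0.33 ± 0.12 (adjusted p 0.213), Sqle of cholesterol synthesis at 0.30 ± 0.12 (adjusted p 0.292) and Slc51b, a bile acid exporter, at -0.40 ± 0.10 (adjusted p 0.0916). None of 18 genes of heme and iron was called.

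Among the markers of immune cells none was called, where 0.59% of all genes were called in either direction, so that lists of this size would hold few calls at that share. These were 11 plasma cell, 10 B cell, 22 T cell and intraepithelial lymphocyte, 18 macrophage and dendritic cell, 7 mast cell, 10 MHC class II and 25 interferon and MHC class I genes. Of the plasma cell genes 10 of 11 lay below 0 with a median of -0.10, with the plasma cell regulator Xbp1 at -0.21 ± 0.08 (adjusted p 0.225). Across all genes 49.4% lay above 0. Thy1, a surface protein of T cells, was at -0.32 ± 0.09 (adjusted p 0.0957), while 13 of the 22 genes of its list lay above 0 (median 0.02). Slpi, a secreted protease inhibitor from the list of Paneth and mucosal defence genes, was at -0.35 ± 0.10 (adjusted p 0.0988). In that list 6 of 9 measured genes lay above 0, with a median of 0.04. Ifi27, an interferon-inducible gene outside these lists, fell by 0.29 ± 0.05 (adjusted p 0.0211), and all its high pairs (-0.39 to -0.03) lay below all low pairs (0.03 to 0.38). Of the 25 listed interferon and MHC class I genes, however, 16 lay above 0 with a median of 0.03, and 1 had an unadjusted p under 0.05.

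For genes that mark the epithelial lineages, the medians of the lists were near 0, while single members lay further away. The lowest was a crypt stem cell gene at -0.53. Of the 11 crypt stem cell genes 3 had an unadjusted p under 0.05, as did 14.3% of all genes. None was called of 14 brush border, 9 goblet, 15 enteroendocrine, 9 Paneth and mucosal defence and 11 crypt stem cell genes, and their medians ran from -0.03 to 0.06. Of 21 cell cycle genes 20 lay above 0 with a median of 0.05, none of them called, and 0 had an unadjusted p under 0.05. The median of these genes in single high pairs ran from -0.52 (vehicle animal 2 at 10 µg/kg) to 0.43 and 0.47 (vehicle animal 3 at 10 and 30 µg/kg). None was called of 16 clock, 23 tight junction, 9 stromal, 8 endothelial, 5 adipose and 4 erythrocyte genes. Dnajb3 was the only called member of 19 heat shock and J-domain genes. Among 551 olfactory receptor genes, most of which gut tissue is not known to use, 359 lay above 0 with a median of 0.02. Olfr419 (0.33 ± 0.07, adjusted p 0.0454) and Olfr124 (0.28 ± 0.06, adjusted p 0.0494) were called. As 0.393% of all genes were called higher, a list of 551 would hold about that many calls at the same share. An unadjusted p under 0.05 was found for 61 of the 551, and for 14.3% of all genes. Of all genes, 49.4% lay above 0.

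**Figure D4:**
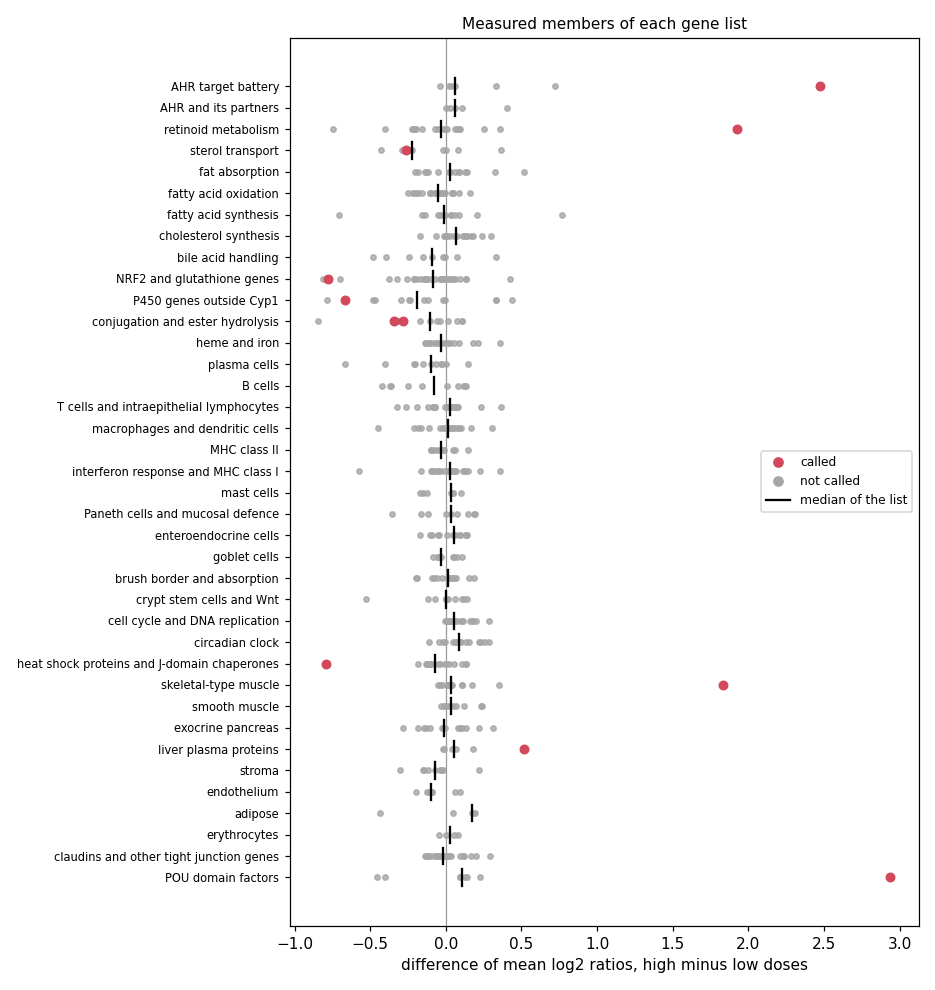
Difference between the arms (x axis, log2) for the measured members of each gene list (y axis), with called genes in red, others in grey and the median of each list as a black bar. Olfactory receptors are left out for their number. Most lists with a call hold a single called gene, as with Acta1 at 1.83 among muscle genes, and the P450 genes outside Cyp1 have a median of -0.19.

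The remaining named falls were Mtfp1 of mitochondrial fission at -0.44 ± 0.07 (adjusted p 0.0138), the ubiquitin ligase Rnf130 at -0.41 ± 0.09 (0.0466), the heparan sulfate sulfotransferase Hs3st1 at -0.39 ± 0.09 (0.0498) and Edaradd, the adaptor of the ectodysplasin receptor, at -0.35 ± 0.08 (0.0494). Snapc1, of the complex that activates small nuclear RNA genes, fell by 0.28 ± 0.05 (adjusted p 0.0193), and every high pair lay below every low pair. Hsdl2, a peroxisomal dehydrogenase-like protein, fell by 0.29 ± 0.05 (adjusted p 0.0138) and the membrane protein gene Tmem64 by 0.30 ± 0.06 (adjusted p 0.0346). The 2 probes of Tmem64 gave -0.38 ± 0.09 (adjusted p 0.0702) and -0.23 ± 0.08 (adjusted p 0.192), neither called alone. Those of Rnf130 gave -0.36 ± 0.09 (adjusted p 0.0758) and -0.45 ± 0.09 (adjusted p 0.044). Across all 26 falls the median difference was -0.29. At 3 µg/kg the mean of all 26 was below the mean of the low arm, though single pairs of several of them, such as Hs3st1 and Edaradd, lay within the range of the low arm. In 20 the mean was lowest at 30 µg/kg, and in 9 the means were ordered over the 3 doses. Since 3 µg/kg is part of the high arm, calling on the arm favours such means. The median depth below the mean of the low arm was 0.25 at 3, 0.26 at 10 and 0.34 at 30 µg/kg.

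**Figure D5:**
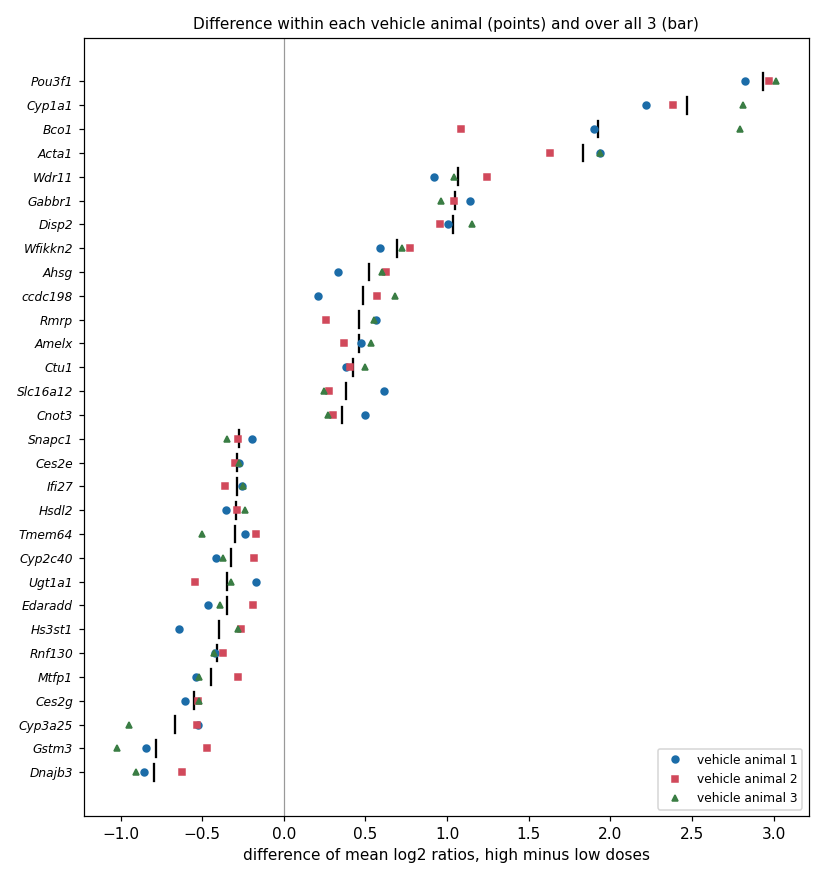
Difference between the arms (x axis, log2) for the 15 largest called rises and 15 largest called falls, computed within each vehicle animal (points, 3 high against 3 low pairs each) and over all 3 (black bar). All points of a gene lie on the same side of 0. Pou3f1 spans 2.82 to 3.01, whereas Bco1 spans 1.09 to 2.79.

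Within the high arm, 30 was set against 3 µg/kg in a fit of all 24 pairs and 12856 genes. In it 44 genes were higher (0.342%) and 10 lower (0.0778%) at 30 µg/kg, and 38 and 56 without centring of the arrays. Leaving out vehicle animals 1, 2 and 3 gave 16, 20 and 24 called genes. The largest rise was again Pou3f1, at 3.45 ± 0.20 (adjusted p 1.86e-08), followed by Tmigd1, an immunoglobulin-domain membrane protein of gut and kidney epithelium, at 2.73 ± 0.30 (adjusted p 5.57e-05), and Acta1 at 2.69 ± 0.33 (adjusted p 0.000191). Tmigd1 was near or below 0 at 3 µg/kg (-1.04, 0.12 and -1.17) and at 1.79, 2.98 and 1.34 at 30. The largest falls were Adh4 at -1.14 ± 0.23 (adjusted p 0.0293), Dnase1, a secreted nuclease, at -0.98 ± 0.13 (adjusted p 0.000305), and the retinal dehydrogenase Aldh1a1 at -0.58 ± 0.10 (adjusted p 0.0124). In 2 of the 3 pairs at 30 µg/kg pancreas genes stood high, and their part in these differences was not tested. Of the 54 genes 7 were also called between the arms (13.0% of the 54 and 8.97% of the 78), namely Pou3f1, Acta1, Wdr11, Gabbr1, Disp2, Ahsg and Amelx, and none of the 26 falls was among them. Only 76 of the 78 were tested in this fit. Wfikkn2 entered it without its rising probe and stood at -0.03 ± 0.17. With its 3 probes averaged, its mean was 0.18 at 3 and 1.10 at 30 µg/kg. The comparisons share the pairs at 3 and 30 µg/kg.

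Between the low arm and the 6 pairs at 0.3 and 1 µg/kg, 0 of 12856 genes (0%) were called by limma, with a smallest adjusted p of 0.916. An unadjusted p under 0.05 was found for 664 genes. Pou3f1 stood at 0.16 ± 0.13 and Cyp1a1 at -0.08 ± 0.25 there, relative to the low arm. Gstm3 was at -0.28 ± 0.14 and Cyp3a25 at -0.36 ± 0.14, each with an adjusted p of 0.916. At 1 µg/kg alone the means of Gstm3 and Cyp3a25 were -0.28 ± 0.23 and -0.33 ± 0.29 (SD, n = 3).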

How the data were processed

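The authors deposited log ratios for 41085 probes, which were taken as log2. Neither scanner software, normalization nor filter is given in the sources used here. Of the cells 24.6% are empty. Intensities were not used here, and the number of animal pairs limits the precision. Probes that sat on any used array at a value shared by at least 200 probes (488 probes, some by coincidence) were dropped. Arrays were centred on their median, dye-swapped arrays averaged, and complete probes with 1 gene (18209 of 21537) averaged by gene. The array annotation names 32555 probes with 1 symbol. It does not list 8485, and 32416 matched RefSeq (GRCm38.p6).

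The arms were compared with limma 3.58.1 (R 4.3.3, statmod 1.5.0), lmFit and eBayes, two-sided, with a fixed term for the vehicle animal, tested on simulated data first. Pairs of the same number share a vehicle animal per the labels, and their deviations from dose means correlated by 0.28 on average (other vehicle animals -0.14). Such deviations cancel over the vehicle animals at each dose, so the second value follows largely from the first. The fits of 30 against 3 µg/kg and of 0.3 and 1 µg/kg used 1 mean per dose and the same term. Named are the 15 largest called rises and falls, Cyp1a1, Pou3f1 and Acta1, all measured AHR targets, up to 4 called members of each list or else the member of smallest p, and the 3 largest called each way in the other fits, leaving out predicted and clone names. Other genes named beside these, such as partners and list extremes, were chosen after their values were seen. Alternatives covered block, scaling, probes, dyes, doses and animals. The members, lists and tests were chosen with earlier results of these data known.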

Additional observations from a re-analysis of the deposited data

Results flagged for a closer look

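Of 74 groups of 9 pairs examined (37 genes in both arms), 4 held a pair far from the others, and chance alone gives about 1 in 20. In the low arm Acta1 stood at 1.08 in the pair of vehicle animal 2 at 0.1 µg/kg, against 0.28 in the next, and that pair is also one of those with pancreas signal. The pair of vehicle animal 3 at 0.01 µg/kg stood apart for Cnot3 (-0.37, next -0.15), Ifi27 (0.38, next 0.18) and Aldh1a1 (0.39, next 0.15).

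For 11 of the 37 genes the effect differed between doses of the high arm by a test of the difference itself, 30 minus 3 µg/kg in limma. Of all 12856 genes 54 did. The 37 genes include the 3 largest rises and the 3 largest falls of that same test, so the count of 11 was partly fixed by this choice. The difference was positive for Pou3f1 (3.45), Tmigd1 (2.73), Acta1 (2.69), Wdr11 (1.66), Disp2 (1.55), Gabbr1 (1.22), Amelx (0.68) and Ahsg (0.63), and negative for Adh4 (-1.14), Dnase1 (-0.98) and Aldh1a1 (-0.58). Tmigd1, Adh4, Dnase1 and Aldh1a1 were named for this difference and were not called between the arms.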

How the results depend on the processing

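The count of 78 was 20 with no replicate block, 118 and 143 with 1 mean per dose in the 18 and in all 24 pairs, 39 with incomplete probes, 27 with the weakest probe of each gene, 4 and 11 with only the arrays that had the treated animal in Cy5 or in Cy3, and 11 at 1.5-fold or more. Leaving out a vehicle animal gave 0 to 171. It was 5, 1, 2 and 2 without 0.01, 0.1, 10 and 30 µg/kg, 0, 20 and 289 with 3, 10 and 30 µg/kg alone as the high arm, 3 without the pairs of vehicle animals 1 and 3 at 30 µg/kg, and 1 without the 4 pairs with pancreas signal, an alternative chosen after seeing the data. It stayed within 1.5 times under the other settings (52 to 109), among them a random block (63), quantile normalization (71) and no centring (67). Of 54 genes at 30 against 3 µg/kg, 29 were left with no replicate block, 94 were called without centring, and 16 to 24 without a vehicle animal. The count for 0.3 and 1 µg/kg was 0 under every alternative run.

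The difference of Pou3f1 kept its sign, with adjusted p above 0.05 without vehicle animal 1 or 3 (the difference was 2.90 to 2.99 over the 3 vehicle animals left out, and the call held without vehicle animal 2), without 0.01 (2.93), 0.03 (2.85), 0.1 (3.02), 10 (2.77) or 30 µg/kg (2.16), at 3 µg/kg alone (1.05), and without the 2 or 4 pairs with pancreas signal (2.44 and 2.36). Cyp1a1 passed the test except without vehicle animal 3 (2.30; 2.30 to 2.60 over the vehicle animals) and at 3 µg/kg alone (1.92). Acta1 (1.83) missed it with no replicate block, incomplete probes, the weakest probe or robust eBayes (all 1.83), in Cy5 (1.83) or Cy3 alone (1.84), without a vehicle animal (1.78 to 1.94), without 0.01 (1.82), 0.03 (1.79), 0.1 (1.90), 10 (1.89) or 30 µg/kg (1.13), at 3 µg/kg alone (0.55), and without the 2 or 4 pairs (1.33 and 1.32). For the 33 named genes called between the arms, 455 of 960 values kept the call, 502 lost it and 3 reversed. For 4 genes not called there, 105 of 116 values stayed uncalled, 8 gained a call and 3 reversed. Wfikkn2 reversed to -0.028 in all 24 pairs, with probes complete on all 48 arrays and with the weakest probe, settings in which its rising probe is absent or not used. Tmigd1 reversed to -0.22 without 30 µg/kg, -0.54 at 3 µg/kg alone and -0.077 without the 4 pairs. These settings leave out all or 2 of the pairs at 30 µg/kg. The mean of Tmigd1 was -0.70 at 3, -0.07 at 10 and 2.04 at 30 µg/kg, and what raised it at 30 µg/kg was not tested. Of the 33 called genes, 32, 14 and 33 lost the call without vehicle animals 1, 2 and 3, and 23 with no replicate block. Gstm3 kept its call in 22 of 29 settings. The log2 ratios hold no signal over background, so what dim spots limit is unknown.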
